A study of Mus musculus with 6 samples.

Results

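The genes described here are 10 members of related zinc finger transcription factor families, 7 Krüppel-like factors (Klf2, Klf3, Klf4, Klf6, Klf7, Klf10 and Klf13) and 3 early growth response factors (Egr1, Egr2 and Egr3). They were chosen by gene name among the 54532 genes of the deposited count table, which lists 17 KLF and 4 EGR genes in all. RNA-seq had been carried out on N9 microglia, an immortalized line derived from mouse brain, in 3 libraries of LPS-stimulated cells (1 µg/ml for 6 h) and 3 of untreated control cells. Lipopolysaccharide (LPS) is a bacterial cell wall molecule that toll-like receptor 4 recognizes. By the labels all cells were grown in the same serum-containing medium and differ only in LPS. The labels do not say whether the libraries came from separate cultures, and p-values measure only the spread between these libraries.

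KLF proteins bind GC-rich and CACCC sequences through 3 C-terminal C2H2 zinc fingers, and their N-terminal parts decide whether they activate or repress. KLF2, KLF4, KLF6 and KLF7 belong to the mainly activating branch, KLF3 recruits the corepressor CtBP, and KLF10 and KLF13 recruit Sin3 corepressors. In macrophages and endothelium, KLF2 is known to restrain inflammatory gene expression, and its own transcription depends on MEF2 factors downstream of the kinase ERK5. EGR1, EGR2 and EGR3 are immediate-early factors, switched on within minutes by ERK signalling through serum response factor (SRF) and ELK proteins, and held back by the corepressors NAB1 and NAB2.

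Of the 10 genes, 8 were tested after the filter on low counts, and Egr2 and Egr3 were below it. At an adjusted p under 0.05 by edgeR's quasi-likelihood test, Klf6 was up-regulated and Klf2 and Klf13 were down-regulated in LPS-stimulated versus control cells. The other 5 tested genes, Klf3, Klf4, Klf7, Klf10 and Egr1, were not called. Among all 12296 tested genes 34.3% were called, 18.7% higher and 15.7% lower, so that 3 of 8 is a share close to the background. Without control replicates 2 and 3, the libraries with the most counts of the hepatocyte gene Alb, 2 of the 8 were called, Klf6 and Klf2, and 2832 genes in all against 4221 with every library. That fit has 1 control library, so its spread comes from the LPS libraries and the lone control is assumed to vary like them, which holds wherever these libraries are left out in what follows. No member was a DEG at the study's thresholds (adjusted p under 0.05 and absolute log2 fold change over 1.5), which 2.65% of the tested genes passed. This count of 0 was the same with DESeq2, and 3 members had an unadjusted p under 0.05 by edgeR. The median absolute log2 fold change was 0.19 over the tested members and 0.17 over all tested genes. In 3 of the 8 tested members, again Klf2, Klf6 and Klf13, the LPS libraries did not overlap the control libraries, which held for 45.3% of the tested genes. For 1 gene, 3 libraries against 3 allow an exact two-sided permutation p of 0.1 at the least.

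In the same cells the response to LPS was large. Over all 12296 tested genes, 326 (2.65%) were DEG. All 8 genes of an LPS response list (Tnf, Il1b, Cxcl10, Cxcl2, Nos2, Nfkbia, Tnfaip3 and Ccl5) were up-regulated DEG, with a median log2 fold change of 6.01. That list was written with earlier results of these data known, so its count of DEG is description only. Total counts were between 16363767 and 17956772 per library, and 3 counts corresponded to 0.167 to 0.183 CPM (the usual scaling of counts by library size). Microglial markers summed to between 20972 and 23199 counts per library, led by Csf1r and Spi1, but P2ry12 had 3 to 6 counts and Aif1 4 to 9. The hepatocyte markers summed to 5, 253 and 458 counts in control replicates 1, 2 and 3 and to between 3 and 9 in the LPS libraries. The source of these hepatocyte counts in libraries of a microglial line was not tested. For any gene, bulk RNA does not tell fewer cells expressing it from less RNA per cell.

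The promoters of the 3 called KLF genes are shown because these are the members that moved, and that of Egr2 because it was the only one of the 7 members whose windows were searched to hold a CArG box, the element SRF binds. Each is the RefSeq window on GRCm38.p6, the same build as mm10, from 250 bases before to 50 bases after a transcription start, read 5′ to 3′ on the strand of the gene. Klf2 is at chr8:72318812-72319111 (plus strand), Klf6 at chr13:5861239-5861538 (plus strand), Klf13 at chr7:63938866-63939165 (minus strand) and Egr2 at chr10:67537619-67537918 (plus strand). Capitals mark the GC box GGGCGG, the EGR motif GCGNGGGCG, the MEF2 motif and the CArG box, each on either strand.
Klf2: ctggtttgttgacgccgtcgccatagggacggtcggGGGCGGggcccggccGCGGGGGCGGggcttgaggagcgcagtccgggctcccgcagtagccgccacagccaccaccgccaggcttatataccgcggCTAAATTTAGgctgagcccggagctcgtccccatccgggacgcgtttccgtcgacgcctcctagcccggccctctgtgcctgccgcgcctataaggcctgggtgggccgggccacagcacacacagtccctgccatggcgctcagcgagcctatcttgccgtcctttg
Klf6: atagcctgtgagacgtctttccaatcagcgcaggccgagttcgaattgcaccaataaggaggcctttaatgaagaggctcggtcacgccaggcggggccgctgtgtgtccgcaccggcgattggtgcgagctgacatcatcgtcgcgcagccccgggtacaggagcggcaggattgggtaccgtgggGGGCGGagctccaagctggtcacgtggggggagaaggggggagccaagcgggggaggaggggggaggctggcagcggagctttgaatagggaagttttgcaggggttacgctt
Klf13: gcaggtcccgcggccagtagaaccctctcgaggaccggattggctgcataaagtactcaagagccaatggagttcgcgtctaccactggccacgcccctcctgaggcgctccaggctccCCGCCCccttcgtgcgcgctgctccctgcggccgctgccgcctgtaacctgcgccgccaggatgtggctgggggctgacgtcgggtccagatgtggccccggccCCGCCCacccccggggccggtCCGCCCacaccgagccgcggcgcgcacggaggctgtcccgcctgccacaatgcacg
Egr2: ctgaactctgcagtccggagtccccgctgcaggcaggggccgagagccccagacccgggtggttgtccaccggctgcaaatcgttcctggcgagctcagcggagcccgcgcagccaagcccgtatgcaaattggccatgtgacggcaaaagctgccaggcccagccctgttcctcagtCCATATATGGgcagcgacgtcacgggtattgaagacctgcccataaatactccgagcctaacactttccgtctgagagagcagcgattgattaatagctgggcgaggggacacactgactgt

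Windows of 7 of the 10 members were used, 6 for KLF genes and 5 for Egr2, and the promoters of Klf10, Egr1 and Egr3 were not analysed here. The Klf2 window held the only MEF2 motif among these 11 windows, CTAAATTTAG, beginning 118 bases before the start. This motif was found in 3.19% of the 32851 RefSeq windows of the same length. The Klf2 window also held an EGR motif, which overlaps a GC box, and 5.55% of all windows hold that motif. The Klf3 and Klf4 windows held the EGR motif too. The GC box was found in 8 of the 11 windows and in 35.7% of all windows. The CACCC motif, searched on both strands but not capitalized, is in 57.5% of all windows, and the Klf4 and Klf6 windows and 1 Egr2 window had no match. A CArG box was found in 4 of the 5 Egr2 windows, 3 of which overlap and share the same box, and in 1.63% of all windows. The Egr2 window without it, chr10:67535249-67535548, is the one that holds the start of the deposited gene model, at 67535475. The Egr2 window printed above lies further into that model. None of the 11 windows held the kappa B motif, which 4.51% of all windows hold. These matches describe the letters only.

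Klf2 (ENSMUSG00000055148, chromosome 8, 72319033 to 72321656) had the largest change of the 8 tested members. Counts of 688, 796 and 841 in controls 1, 2 and 3 stood against 487, 523 and 465 in LPS libraries 1, 2 and 3. Every LPS library was below every control library. Klf2 fell from 43.5 ± 2.89 to 30.3 ± 1.84 CPM (SD, n = 3), where CPM are counts scaled to the TMM-normalized library size. This was a log2 fold change of -0.52 (standard error 0.07, 95% interval -0.68 to -0.36, edgeR adjusted p = 6.4e-05). Among all tested genes, 15.2% had a larger absolute log2 fold change. Control replicate 1, the control library with 2 counts of Alb, had the lowest Klf2 of the control libraries at 40.1 CPM, against 31.9 CPM in the highest LPS library. With the control libraries holding 155 and 292 counts of Alb left out, an alternative chosen after the data were seen, the log2 fold change of Klf2 was -0.40 against the 1 remaining control library (edgeR adjusted p = 0.0149). Leaving out single libraries gave values between -0.59 and -0.47, all of them called.

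Klf2 is also abundant in endothelium, whose markers Pecam1, Cdh5, Kdr, Tek, Tie1, Cldn5 and Emcn were followed for that reason. They summed to 10, 6 and 17 counts across controls 1 to 3, against 27, 39 and 34 after LPS, with Cldn5 and Emcn at 0 in every library. These counts are few and come mostly from Kdr and Cdh5, which were higher with LPS. Tek had 0, 1 and 1 counts across controls 1 to 3 and 0 in each LPS library. Kdr was the only one of these markers tested and was called higher. Whether RNA of endothelial cells adds to the Klf2 values was not tested.

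**Figure D1:**
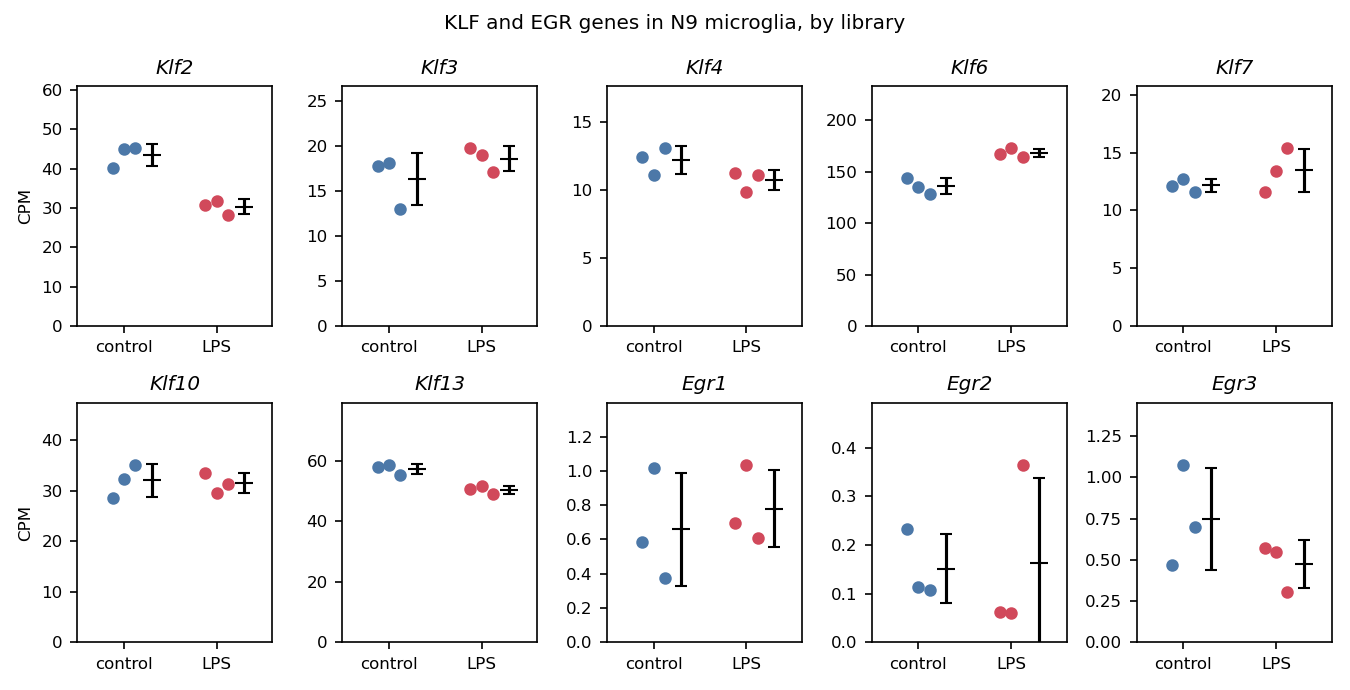
CPM of each member in each library of control and LPS-stimulated N9 microglia (dots), with the mean and SD of the 3 libraries beside them in black; the vertical axes start at 0 and differ between genes. The groups are apart for Klf2, Klf6 and Klf13, and overlap for the other 7 genes.

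Klf4 (ENSMUSG00000003032, chromosome 4, 55527143 to 55532466), the closest relative of Klf2 by function in macrophages and a regulator of their polarization, was lower on average but was not called. It had 213, 196 and 243 counts across controls 1 to 3, against 178, 162 and 182 after LPS. In CPM the groups overlapped, since LPS replicate 1 at 11.3 CPM was above control replicate 2 at 11.1 CPM. The log2 fold change was -0.18 (95% interval -0.43 to 0.06, edgeR adjusted p = 0.239), so that the interval reaches from a decrease near that of Klf2 to a small increase. Scaled by total counts without TMM factors, an alternative chosen with the data in view, Klf4 was at -0.28 (edgeR adjusted p = 0.0631).

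Klf6 (ENSMUSG00000000078, chromosome 13, 5861482 to 5870394), a widely expressed activator that works with NF-kappa B in macrophages, was the most abundant member and the only one called higher. It had 2471, 2387 and 2395 counts across controls 1 to 3, against 2649, 2840 and 2708 after LPS. Each LPS library was above each control library. Klf6 rose from 136 ± 7.74 to 168 ± 4.21 CPM (SD, n = 3), which is a 1.24-fold change. This gave a log2 fold change of 0.31 (standard error 0.05, 95% interval 0.20 to 0.42, edgeR adjusted p = 1.9e-04), and 29.6% of the tested genes had a larger one in absolute size. Leaving out single libraries gave values between 0.27 and 0.34, all of them called. It was 0.21 (edgeR adjusted p = 0.0033) when total counts were used without TMM factors, and 0.23 (edgeR adjusted p = 0.0279) against control replicate 1 alone, both of these settings chosen with the data in view.

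Klf7 (ENSMUSG00000025959, chromosome 1, 64029447 to 64122282), best known from neuronal development, was not called. It had 208, 225 and 216 counts across controls 1 to 3, against 183, 220 and 253 after LPS, so that LPS replicate 1 was the lowest of all libraries in CPM and LPS replicate 3 the highest. Its log2 fold change was 0.15 (95% interval -0.105 to 0.40, edgeR adjusted p = 0.373). It was 0.041 without LPS replicate 3 and 0.24 without LPS replicate 1, and was called in neither fit. An antisense gene, Gm13748, overlaps Klf7 and had 12 to 26 counts per library. Whether the counting used strand is not given in the sources used here, and reads of these genes may be mixed.

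Klf3 (ENSMUSG00000029178, chromosome 5, 64803388 to 64832901), the CtBP-dependent repressor among the members, was not called either. It had 305, 320 and 241 counts across controls 1 to 3, against 312, 311 and 281 after LPS, and control replicate 3 was apart from the other libraries at 12.9 CPM against 17.1 to 19.8. The log2 fold change was 0.19 (95% interval -0.07 to 0.46, edgeR adjusted p = 0.256), and it was 0.04 without control replicate 3.

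Of the members that act through Sin3, Klf13 was called lower and Klf10 was not called, and the difference between them was not tested. Klf13 (ENSMUSG00000052040, chromosome 7, 63886351 to 63938915), first described as a factor for Ccl5 transcription in T lymphocytes, had 991, 1037 and 1030 counts across controls 1 to 3, against 800, 849 and 807 after LPS. All LPS libraries were below all control libraries. Klf13 fell from 57.3 ± 1.74 to 50.5 ± 1.33 CPM (SD, n = 3). On the log2 scale the change was -0.18 (standard error 0.055, 95% interval -0.30 to -0.06, edgeR adjusted p = 0.0186). This call was the least stable of the 3. It was lost without control replicate 2 (-0.17, edgeR adjusted p = 0.0526) and without LPS replicate 3 (-0.16, edgeR adjusted p = 0.073), and its adjusted p with DESeq2 was 0.0496. Against control replicate 1 alone it was not called either (edgeR adjusted p = 0.105), with a log2 fold change of -0.19 that was no smaller than with all libraries. Ccl5 itself had 12, 4 and 5 counts across controls 1 to 3, against 492, 421 and 454 after LPS.

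Klf10 (ENSMUSG00000037465, chromosome 15, 38291463 to 38300706), induced early by TGF-beta in many cells, had 492, 571 and 655 counts across controls 1 to 3, against 531, 485 and 517 after LPS. The lowest and the highest library in CPM were both controls, at 28.7 and 35.2 CPM. The log2 fold change was -0.03 (95% interval -0.21 to 0.16, edgeR adjusted p = 0.846), and its sign was not stable to leaving out control replicate 3 or LPS replicate 2.

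**Figure D2:**
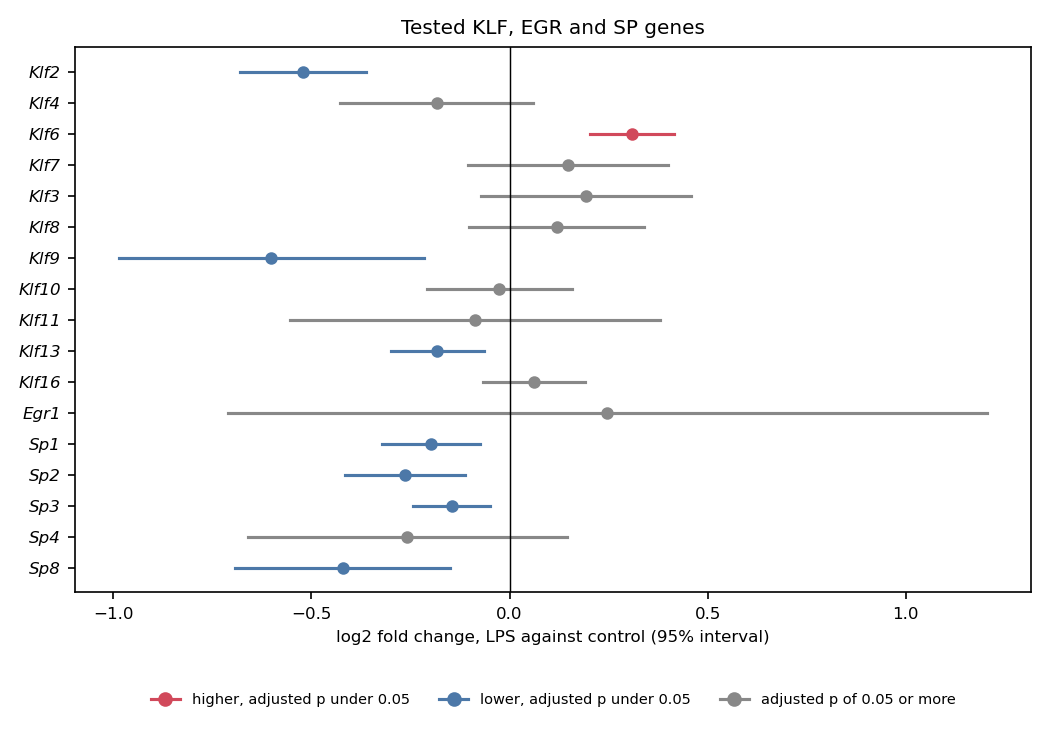
Log2 fold change in LPS-stimulated versus control cells (dots) with its 95% interval (lines) for the tested KLF, EGR and SP genes, coloured by the edgeR call. Klf6 is the only gene shown that was called higher, at 0.31, and Egr1 has the widest interval, from -0.71 to 1.21.

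Levels can be compared between genes only per length, as CPM per kilobase of the deposited gene length. In control cells, Klf6 was highest at 31.0 ± 1.76 CPM per kilobase (SD, n = 3), followed by Klf2 at 23.5 ± 1.57. Klf10 at 7.68 and Klf13 at 7.61 overlapped between libraries, and so did Klf7 at 1.496 and Klf3 at 1.449, with Klf4 between these pairs at 3.999. The EGR genes were lowest, with Egr3 at 0.17, Egr1 at 0.15 and Egr2 at 0.04. The order of the KLF genes by mean level was the same with LPS, where Klf10 and Klf13 no longer overlapped. The ratio of Klf6 to Klf2 was 1.32 in control cells and 2.34 with LPS. Lengths are of whole gene models, and the transcripts in use may be shorter.

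The summed level per length of the 7 KLF genes differed little between the groups. It was 76.2, 77.5 and 76.4 CPM per kilobase across controls 1 to 3, against 76.6, 77.2 and 73.9 after LPS, with overlapping groups. The log2 ratio of LPS to control was -0.02, and -0.11 with total counts in place of TMM scaling. Without division by length the ratio was 0.065, and the summed CPM of all 10 members was then 303.3 to 315.5 in the control libraries and 318.4 to 330.0 with LPS, so that those groups did not overlap. The direction of the sum thus depends on the scale. The make-up of the sum did differ. Klf2 made up 30.7% ± 1.9 of it in control cells and 21.6% ± 0.834 with LPS (SD, n = 3). Klf6 made up 40.4% ± 2.42 in control cells and 50.6% ± 0.601 with LPS. The shares of Klf10, at 10.0% ± 1.01 and 9.95% ± 0.703, lay within their spread. Within each library, the ratio of Klf2 to Klf6 per length was 0.662, 0.793 and 0.835 across controls 1 to 3, against 0.437, 0.438 and 0.408 after LPS. These shares and sums were not tested.

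**Figure D3:**
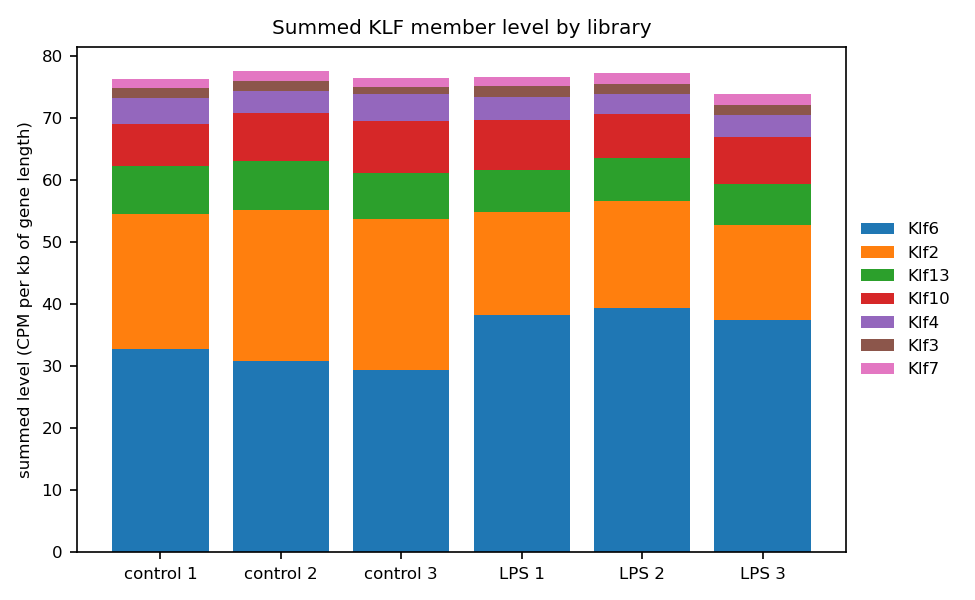
Level per length (CPM per kilobase of gene length) of the 7 KLF members, stacked for each library. The bars reach 73.9 to 77.5 in all libraries, while the Klf2 part is smaller and the Klf6 part larger in the LPS libraries.

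The EGR genes were near the limit of detection in both groups. Egr1 (ENSMUSG00000038418), the prototype of the family, had 10, 18 and 7 counts across controls 1 to 3, against 11, 17 and 10 after LPS. The groups overlapped. Its log2 fold change was 0.25 (95% interval -0.71 to 1.21, edgeR adjusted p = 0.716), so a change of about the size of that of Klf2 was not detectable at this depth. With 1 library fewer, the log2 fold change of Egr1 lay between -0.05, without control replicate 3, and 0.70, without control replicate 2. Against control replicate 1 alone it was 0.42.

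Egr2 (ENSMUSG00000037868, chromosome 10, 67535475 to 67542188), known as Krox20 from hindbrain and myelinating Schwann cells, had 4, 2 and 2 counts across controls 1 to 3, against 1, 1 and 6 after LPS. LPS replicate 3 held 6 of the 8 counts in its group. The ratio of LPS to control, on 8 counts each, was 1.10 with an exact 95% interval from 0.359 to 3.36, which covers counting error only. Egr3 (ENSMUSG00000033730, chromosome 14, 70077203 to 70082614), studied in muscle spindles and in T cell tolerance, had 8, 19 and 13 counts across controls 1 to 3, against 9, 9 and 5 after LPS. The groups overlapped in CPM. On 23 against 40 counts the ratio was 0.631, with an exact 95% interval from 0.361 to 1.08 for counting error only. DESeq2, which tested Egr3 without edgeR's filter, gave a log2 fold change of -0.67 (DESeq2 adjusted p = 0.577). In the 4 edgeR fits with 1 library fewer in which Egr3 passed the filter, it lay between -0.90, without control replicate 1, and -0.42, without LPS replicate 3, and was not called.

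The other members of the families were looked up from lists written with earlier results of these data known. Of the 10 other KLF genes, 4 were tested and only Klf9, a Sin3-type repressor, was called. It had 77, 109 and 106 counts across controls 1 to 3, against 54, 61 and 60 after LPS, so that it fell by 0.60 ± 0.18 in log2 units (edgeR adjusted p = 0.0177; ± gives the standard error). The call was lost in 5 of 14 other fits, among them DESeq2 and those without control replicate 2, control replicate 3 or LPS replicate 1, and against control replicate 1 alone it was at -0.32. Klf8, Klf11 and Klf16 were not called, Klf1, Klf5 and Klf15 were below the filter, Klf12, Klf14 and Klf17 were at 0 in every library, and Egr4 and Wt1 were at 0 as well, which allows up to 0.183 CPM per library at 3 counts. Of the 9 SP genes, the nearest relatives of the KLF family, 5 were tested and 4 were down-regulated (Sp1, Sp2, Sp3 and Sp8), with log2 fold changes from -0.42 for Sp8 to -0.15 for Sp3. The count of lower SP genes was 4 with RLE size factors and with total counts, and 3 with DESeq2. With one library left out, Sp2 was called each time, while Sp3 was called only without control replicate 1. Sp1 and Sp8 were lost without control replicate 2 or LPS replicate 1. Against control replicate 1 alone, no SP gene was called. The log2 fold changes of Sp2 (-0.24, edgeR adjusted p = 0.142) and Sp8 (-0.47, edgeR adjusted p = 0.0894) were then near those with all libraries, while those of Sp1 (-0.11) and Sp3 (-0.08) were smaller.

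Genes that act on the members or with them were followed next. Of 5 genes of the ERK5 and MEF2 route upstream of Klf2 and Klf4, Mef2a and Mef2c were down-regulated and the kinases Map2k5 and Mapk7 (ERK5) were not called. Mef2c fell from 176 ± 9.78 to 94.6 ± 1.68 CPM (SD, n = 3; log2 fold change -0.89, edgeR adjusted p = 2.3e-09). Mef2a fell from 148 ± 1.48 to 94.9 ± 1.11 CPM (log2 fold change -0.64, edgeR adjusted p = 1.8e-08). Mef2d had a log2 fold change of 0.12 (edgeR adjusted p = 0.0515). Of 14 other fits, 3 called it, and it lay between 0.025, with total counts (edgeR adjusted p = 0.701), and 0.20, against control replicate 1 alone (edgeR adjusted p = 0.0424). Klf2, whose window holds the MEF2 motif shown above, was lower in the same libraries, and a link between these changes was not tested.

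Of the SRF and partner genes, 1 of 6 was called, Elk3, at a log2 fold change of -0.18 (edgeR adjusted p = 0.0064), and Srf, Elk1, Elk4, Mkl1 and Mkl2 were not. Against control replicate 1 alone, Elk3 was at -0.13 and was not called (edgeR adjusted p = 0.201). With total counts in place of TMM scaling, 3 of the 6 were called lower. Among the EGR corepressors, Nab1 rose from 98.0 ± 2.10 to 148 ± 6.98 CPM (SD, n = 3; log2 fold change 0.60, edgeR adjusted p = 1.5e-07), while Nab2, itself a known EGR target, had a log2 fold change of -0.22 (edgeR adjusted p = 0.193). Nab2 lay between -0.35, against control replicate 1 alone, and -0.12, without LPS replicate 2, and no other fit called it. Among 6 KLF corepressor genes, Sin3a was lower (log2 fold change -0.29, edgeR adjusted p = 0.0021) and Sin3b higher (0.37, edgeR adjusted p = 4.5e-04). Against control replicate 1 alone, Sin3a was at -0.155 and was not called (edgeR adjusted p = 0.184), and Sin3b was at 0.22 (edgeR adjusted p = 0.043). Ctbp1, Ctbp2, Hdac1 and Hdac2 were not called with TMM scaling, and with total counts 3 of the 6 corepressor genes were lower.

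The EGR genes can be set beside 17 other immediate-early genes, all of which were tested. This list too was written with earlier results of these data known, so its counts and median are description only. Of these genes, 11 were up-regulated, 1 (Nr4a2) was down-regulated and 5 were not called. Over all tested genes, 18.7% were called higher and 15.7% lower. The median log2 fold change was 0.505 over the list and 0.004 over all tested genes. Myc rose most, with a log2 fold change of 2.95 (edgeR adjusted p = 3.0e-10), and Ier3 (2.42) and Dusp1 (1.80) were the other DEG. Fos had 101, 112 and 126 counts across controls 1 to 3, against 139, 143 and 156 after LPS, a log2 fold change of 0.505 (edgeR adjusted p = 0.0071). Fosb (-0.69, edgeR adjusted p = 0.0653), Nr4a1 (-0.24), Nr4a3 (0.31), Ier2 (0.16) and Ier5 (0.075) were not called, and Fosb was called lower with total counts. Against control replicate 1 alone, the values of Nr4a1 (-0.41), Nr4a3 (0.052) and Ier5 (0.025) moved by over 1.5 times. So did that of the up-regulated Jund, from 0.57 with all libraries to 0.32. Over 14 other fits, Ier2 lay between 0.064 and 0.226 and Ier5 between -0.024 and 0.089. None of these fits called Nr4a1, Nr4a3, Ier2 or Ier5. The 95% interval of Egr1, from -0.71 to 1.21, includes the log2 fold changes of Fos and of Nr4a2, so Egr1 was not shown to differ from either. The values of the DEG Dusp1, Ier3 and Myc lie above that interval. A difference between the EGR genes and these genes was not tested, and a single time point of 6 h does not cover the first minutes after LPS.

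**Figure D4:**
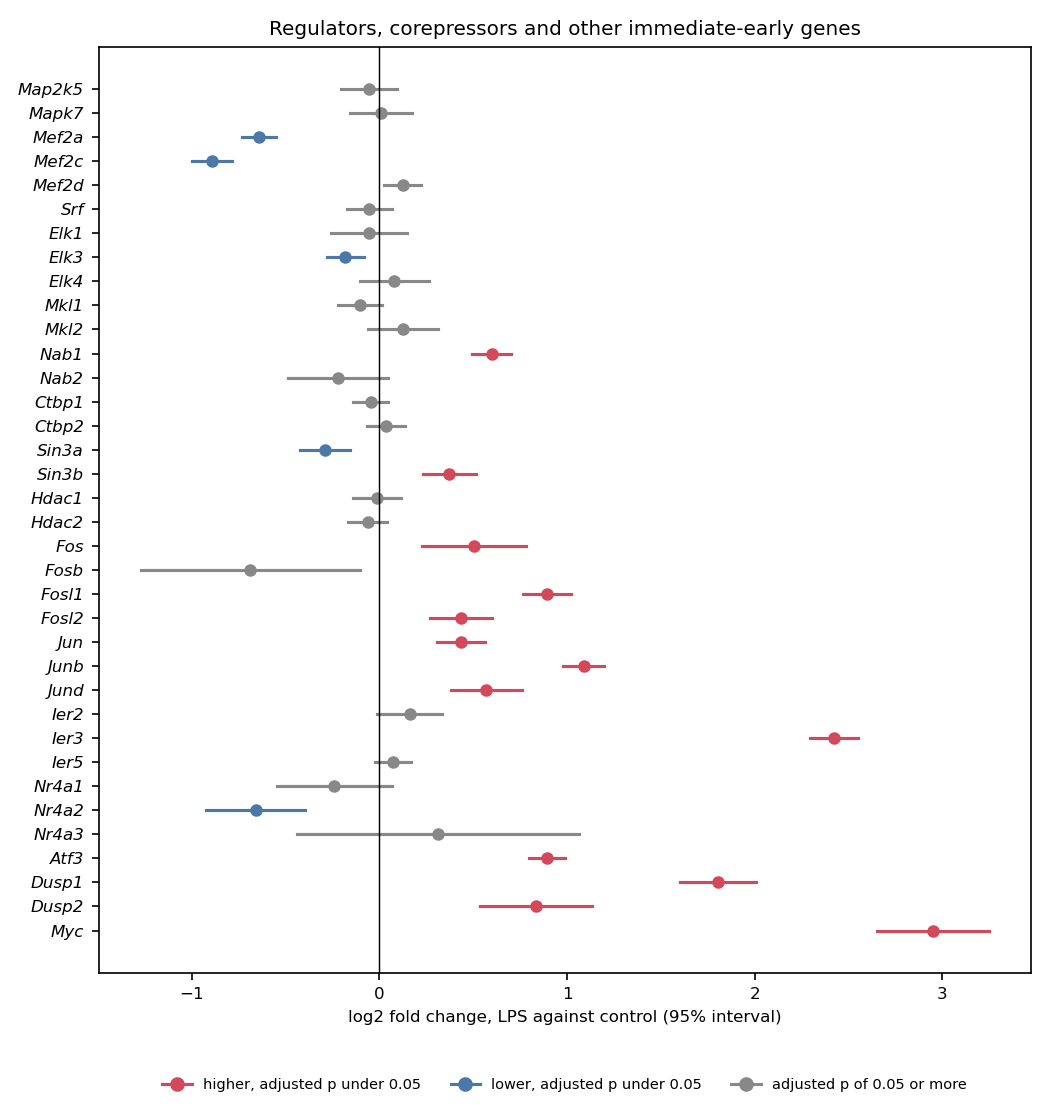
Log2 fold change in LPS-stimulated versus control cells (dots) with its 95% interval (lines) for MEF2, SRF, NAB, corepressor and other immediate-early genes, coloured by the edgeR call. Mef2c at -0.89 is the lowest gene shown and Myc at 2.95 the highest.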

How the data were processed

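RNA-seq libraries of N9 microglia, 3 with LPS and 3 untreated, were grouped by the labels. The authors deposited raw read counts per gene, and per the labels the submitters' processing notes name featureCounts 1.5.0-p3 and mm10. The aligner and strand setting are not given in the sources used here. A further table, the authors' own DESeq2 comparison with log2 fold changes and p-values, and its 18 columns of values per sample and 2 of group means, were not used. All 10 members had the position of GENCODE M21 (GRCm38) in the deposited table, which also gave one gene length in bases per gene.

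The counts were tested with edgeR 4.0.16 (R 4.3.3): TMM (factors 0.965 to 1.04), filterByExpr by group, a prior count of 0.125, glmQLFTest without a replicate term, and Benjamini-Hochberg adjustment over 12296 genes. The standard error is the log2 fold change divided by the square root of F, and the 95% interval uses the t distribution with edgeR's total degrees of freedom. Exact intervals of count ratios are Clopper-Pearson intervals (scipy 1.17.1). These intervals cover counting error only, as PCR copies of a molecule were not told apart. Figures used matplotlib 3.10.9. Scripts were tested on simulated data.

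Alternatives were DESeq2 1.42.0, RLE factors, no filter, a mean of 10 counts, glmTreat at 0.5, robust dispersion, a replicate block, each library left out, and levels without length. Total counts without TMM factors, and control replicates 2 and 3 left out, were added after the data were seen. The members and lists were chosen with earlier results of these data known. The genes named are all members and, of the lists, those called and those at the ends; other genes named were chosen after their values were seen.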

Additional observations from a re-analysis of the deposited data

How the results depend on the processing

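Over 15 alternative settings for each of the 8 tested members, 109 of 120 log2 fold changes kept their direction and their side of the threshold, 6 were no longer called and 5 changed sign. Of the 6, 3 came from glmTreat, which tests against an absolute log2 fold change of 0.5 itself. It called 0 members and 789 genes in all, where 4221 were called without it. The other 3 were those of Klf13 given above. The sign changes were of genes that were never called. For Klf10 the log2 fold change lay between -0.11 and 0.04 over the fits with 1 library fewer and was 0.14 without control replicates 2 and 3. For Egr1 it lay between -0.047 and 0.696 over those fits. The summed KLF level differed by -0.02 (log2 of LPS to control), by 0.065 without division by length, and by -0.11 with total counts. For the summed EGR level, which rests on few counts, the log2 ratio was -0.13 and lay between -0.30 and 0.19 with 1 library fewer. DEG over all genes numbered 326, and between 305 and 469 under the alternatives. The causes of these differences were not tested.

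Same-numbered control and LPS libraries had correlations of their deviations from the group mean of 0.14, 0.05 and 0.01. Control replicate 2 had 0.07 with LPS replicate 3, and control replicate 3 had 0.02 with LPS replicate 2. Deviations from a mean of 3 libraries depend on each other, so such small differences do not decide whether the numbers are pairs. The numbers were not taken as pairs because the study names none. With a replicate block, 4474 genes were called, and among the members Klf2, Klf6 and Klf13 as without it. Of the other genes named, Mef2d was called higher with the block (log2 fold change 0.12, edgeR adjusted p = 0.0337). Depth limits the EGR genes most, at 19 counts or fewer in every library.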

Other observations

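Markers of other cell types were looked up because several members are expressed in many tissues. The astrocyte list summed to between 1576 and 1834 counts per library, most of it from Gja1 and Aldh1l1. The oligodendrocyte list summed to 930, 897 and 847 counts in control replicates 1, 2 and 3. It summed to 685, 709 and 699 in LPS replicates 1, 2 and 3, and Mbp and Cnp held most of these counts. Mbp (log2 fold change -0.34, edgeR adjusted p = 0.0028) and Aldh1l1 (-0.29, edgeR adjusted p = 0.0129) were called lower. Gja1 was called higher (0.18, edgeR adjusted p = 0.0099), but no astrocyte gene was called higher with total counts. Aqp4 and Mog had 2 counts or fewer in every library. The neuron list summed to 383 to 440 counts in the control libraries and 263 to 300 with LPS, nearly all from Map2, with Rbfox3 at 0 or 1. Map2 was called lower (log2 fold change -0.41, edgeR adjusted p = 0.0022). The fibroblast list summed to 148, 7 and 126 counts in control replicates 1, 2 and 3 and to 91, 13 and 13 in LPS replicates 1, 2 and 3. Col1a1 and Col1a2 led it in control replicates 1 and 3 and in LPS replicate 1. In LPS replicates 2 and 3 Pdgfra had the most counts, 6 and 9. Whether the counts of these lists come from other cell types or from the N9 cells themselves was not tested. Any part of other cell types in the values of the KLF and EGR genes was not tested either.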
